A study of Drosophila melanogaster with 4 samples.

Results

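The H4K20me1 peaks on the X chromosome of wild-type Drosophila melanogaster wing discs number 1367 of the 7885 peaks in the authors' list, which is 17.3% of them. They were chosen by chromosome alone: every interval placed on X in build dm3 was kept, at every width, and the interval on X heterochromatin, which the build holds as a separate sequence, was not. For comparison, the autosomal arms 2L, 3L and 3R held 1308, 1614 and 1956 peaks, or 4878 together. The other arms and sequences were not used in the comparisons. Wing discs are epithelial sacs of the larva from which the adult wing and much of the thorax develop.

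The peaks come from 1 chromatin immunoprecipitation (ChIP) library, made with an antibody against H4K20me1 from discs of larvae in the third instar, reared at 25 °C. Wild type here is a GAL4 driver line, a y1 w* stock with the insertion P{Act5C-GAL4}25FO1 over the balancer chromosome CyO, y+, in which the yeast activator GAL4 is driven broadly by the Act5C actin promoter. The series also has an input library of the same genotype and 2 RNA libraries, from Polycomb RNAi discs (also y1 w*, with the same P{Act5C-GAL4}25FO1 insertion and a UAS-dsRNA Polycomb transgene, so that GAL4 switches on double-stranded RNA against Polycomb) and from wild-type discs. The Polycomb RNAi genotype on the labels names no balancer. The files give no read depth. Each of these 4 samples is a single library, so no value below has a replicate error and no p-value is given. Intervals given for shares and medians cover counting error only and treat peaks as independent, which peaks in the same run may not be.

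H4K20me1 is a single methyl group on a lysine of histone H4. The enzyme PR-Set7 places it, and Hmt4-20 can add further methyl groups to it. The mark is known for its part in chromosome compaction and cell division and is also found over the bodies of genes. In Caenorhabditis elegans and in mammals H4K20me1 is enriched on X chromosomes that undergo dosage compensation. In Drosophila, dosage compensation works through the MSL complex and the roX RNAs, which raise transcription from the single X of males and place a different histone mark. That makes the X chromosome a natural unit on which to describe H4K20me1 in the fly.

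In the wild-type RNA library, the defining wing disc genes were all present. They reached from 36.7 FPKM (fragments per kilobase, corrected for library size) for Dll, which patterns distal appendages, to 159.3 FPKM for ci, the effector of Hedgehog signalling. The wing selector genes vg and sd had 54.2 and 116.7 FPKM, and the other markers nub, ap, wg and hth had 83.5, 143.9, 43.0 and 137.8 FPKM. Markers of other larval tissues were present in the same library. The haemocyte genes Hml, Pxn, He and eater lay between 2.76 FPKM for Hml and 8.72 FPKM for He. The fat body genes Lsp1beta, Fbp1 and Lsp2 had 1070, 762.4 and 21.2 FPKM. The muscle genes Mhc, TpnC73F and wupA had 2.45, 8.19 and 8.28 FPKM. The genes trh and obst-A, taken here as tracheal markers, had 20.7 and 220.0 FPKM. As a cuticle protein gene, obst-A may not be particular to trachea. The noncoding RNA genes roX1 and roX2, both X-linked and expressed in males, had 138.1 and 70.2 FPKM. The sex of the larvae is not given in the labels, and the yolk protein genes Yp1, Yp2 and Yp3, which mark adult females, stayed below 1 FPKM. How many X copies the disc cells held for each set of autosomes is therefore not known, and its part in the X values below was not tested. The share of the ChIP signal that came from cells other than disc epithelium was not tested either.

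X peaks were mostly short, and their widths were close to those on the autosomal arms. The median X peak was 2200 bases wide (95% interval 2000 to 2400, n = 1367), against 2200 bases on 2L, 2200 on 3L and 2400 on 3R. The lower and upper quartiles on X were 1400 and 3400 bases, against 1400 and 3400 bases on 2L and 3L and 1400 and 3600 bases on 3R. The most frequent width on X was 1400 bases, with 101 peaks. Widths are coarse because every one of the 7885 peaks starts and ends on a grid of 200 bases. The shortest peaks were therefore a single grid step of 200 bases, and there were 5 of these on X and 11 on the 3 autosomal arms.

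Narrow and wide peaks also made up like shares. On X, 206 peaks (15.1%) were at most 1 kb wide, against 186 (14.2%) on 2L, 246 (15.2%) on 3L and 262 (13.4%) on 3R. Peaks of at least 5 kb are called wide here. Of the X peaks, 184 were wide, a share of 13.5% (exact Clopper-Pearson 95% interval 11.7% to 15.4%). The shares were 12.8% on 2L (interval 11.1% to 14.8%), 13.4% on 3L (11.8% to 15.2%) and 14.6% on 3R (13.1% to 16.3%). The intervals of X and of each autosomal arm overlapped. The wide X peaks held 37.3% of all bases under X peaks, against 37.3% on the 3 autosomal arms. Peaks of at least 10 kb numbered 36 on X (2.63%), against 32 on 2L (2.45%), 34 on 3L (2.11%) and 47 on 3R (2.40%).

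**Figure D1:**
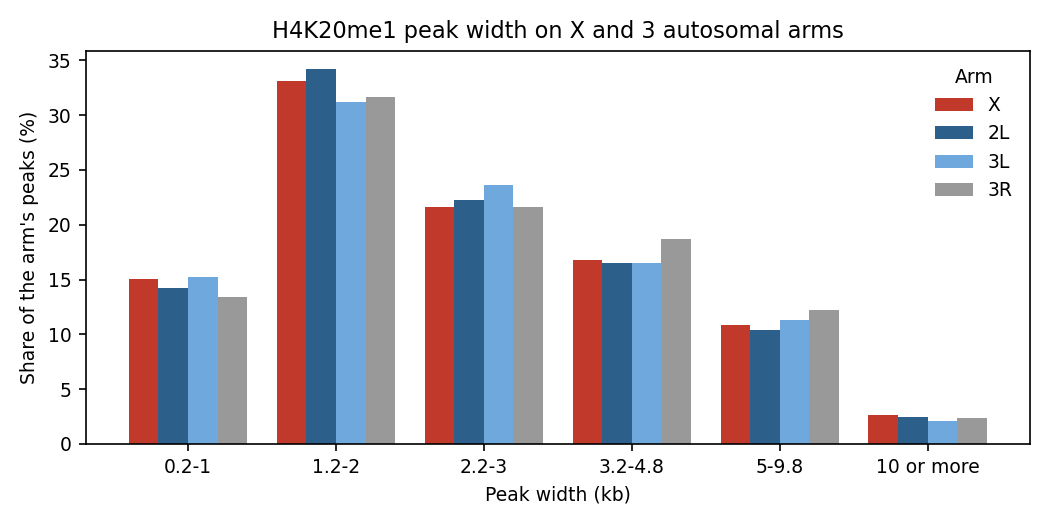
Share of each arm's H4K20me1 peaks (vertical axis, %) in 6 classes of width (horizontal axis, kb), with X in red and the autosomal arms 2L, 3L and 3R beside it. The class of 1.2 to 2 kb was the fullest on all 4 arms, with 33.1% of peaks on X, and the X bar lay among or near the autosomal bars in each class.

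X carried somewhat fewer peaks per unit of length than the autosomal arms together, but not fewer than each of them. Lengths were taken from the first to the last peak of an arm. X had 61.1 peaks per Mb, against 57.1 on 2L, 70.0 on 3L and 70.1 on 3R. Peaks covered 17.9% of X, against 16.5% of 2L, 20.7% of 3L and 21.4% of 3R. X thus lay between 2L and 3L in both measures. Over the 3 autosomal arms together the values were 66.0 peaks per Mb and 19.7% covered, so that X stood at 0.92 times their peak density and 0.91 times their coverage. With the first and last 2 Mb of every arm left out, these ratios were 0.98 and 0.96.

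The authors' score of a peak, whose scale no header or label states, is used to rank peaks within the list. The median X score was 108.0 (95% interval 100.6 to 117.8), against 104.6 on 2L, 105.6 on 3L and 110.1 on 3R, so that X lay within the range of the autosomal arms. Scores started at 41.3 on every arm, and 157 X peaks (11.5%) lay below 50, against 575 (11.8%) on the autosomal arms. In the top 10% of scores over the whole list, which starts at 469.2, X held 128 of its peaks, or 9.36% (exact Clopper-Pearson 95% interval 7.87% to 11.0%). The shares were 8.26% on 2L, 10.3% on 3L and 9.87% on 3R. Of the 100 highest scores in the list, 14 were on X, against 14 on 2L, 20 on 3L and 25 on 3R.

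Score went with width. Across the 1367 X peaks the Spearman correlation of the measures was 0.73, against 0.71 across the 4878 autosomal peaks. This is a description of peaks from 1 library, all cut on the same grid. Whether the score is itself a sum over the length of a peak is stated in no header or label and was not tested. Were it such a sum, part of this trend would follow from how the score is made. The median score of X peaks of at most 1 kb was 56.9, against 57.9 on the autosomal arms. For X peaks of 5 to 9.8 kb it was 413.6, against 392.8 on the autosomal arms. For X peaks of at least 10 kb it was 1115, against 1323. All 36 X peaks of at least 10 kb were in the top 10% of scores, as were 111 of the 113 autosomal ones. None of the 206 X peaks of at most 1 kb was in the top 10%, and neither was any of the 694 autosomal ones. In the class of 3.2 to 4.8 kb, the top 10% held 15 of 229 X peaks (6.55%). On the autosomal arms it held 95 of 849 (11.2%). The classes on either side went the other way. For peaks of 5 to 9.8 kb, the shares were 42.6% on X and 39.6% on the autosomal arms. For peaks of 2200 to 3000 bases, they were 3.73% on X and 2.65% on the autosomal arms. For peaks of 1200 to 2000 bases, they were 0.662% and 0.765%.

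**Figure D2:**
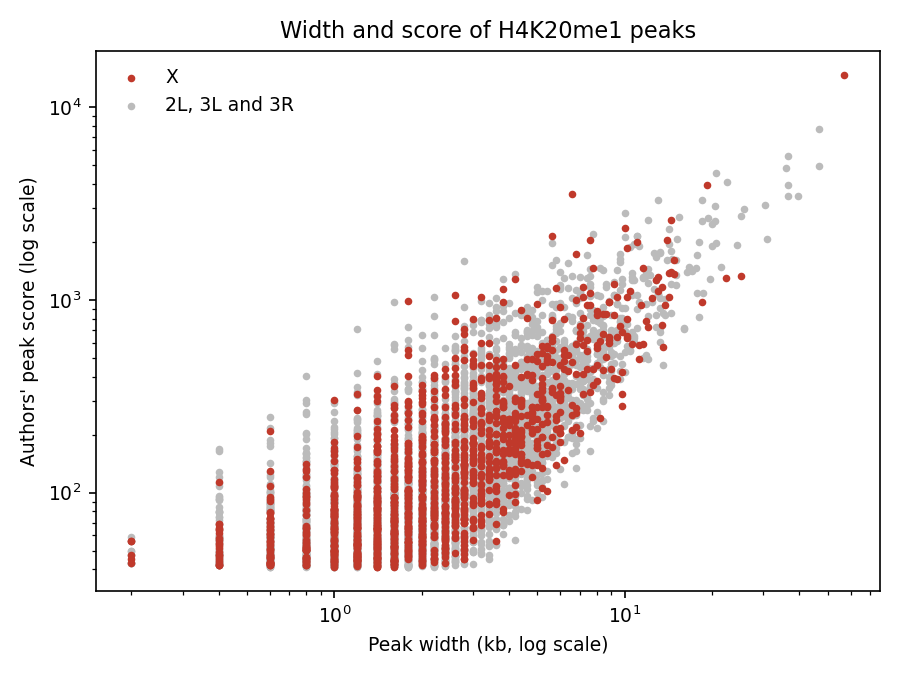
Width in kb (horizontal, log scale) and the authors' score (vertical, log scale) of each H4K20me1 peak, with the 1367 X peaks in red over the 4878 peaks of 2L, 3L and 3R in grey. The X points largely overlap the autosomal ones, apart from the X peak of 57000 bases with a score of 14640, at the upper right and the X peak of 6600 bases with a score of 3551, above the highest autosomal score of 2202 among peaks of 5 to 9.8 kb.

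Some X peaks stood off this trend. The peak at chrX:19671000-19677599 was only 6600 bases wide, of rank 548 in width in the whole list, yet of rank 11 in score with 3551. On X alone it ranked 3 in score. The peak at chrX:3057400-3064999 was 7600 bases wide with a score of 2048, of rank 8 on X. Among X peaks in the top 10% of scores, the narrowest were 1800 bases wide, at chrX:3365800-3367599, chrX:6763200-6764999 and chrX:16230200-16231999, with scores of 520.4, 984.4 and 550.5. Next came a pair of peaks 2600 bases wide, at chrX:3675600-3678199 and chrX:9479600-9482199, with scores of 1063 and 779.7. In the opposite sense, the lowest scores among the 36 X peaks of at least 10 kb were 494.9, for the peak of 11200 bases at chrX:3708200-3719399, and 570.1, for the peak of 13600 bases at chrX:1015600-1029199. In width these had ranks 26 and 14 on X, and in score ranks 118 and 97. The peak at chrX:19734400-19759599 had rank 2 in width on X with 25200 bases, but its score of 1338 gave it rank 18 on X and rank 121 in the list. The peak at chrX:15606800-15625199, of rank 5 in width on X with 18400 bases, had rank 42 in score on X with 976.6.

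The widest peak of the whole list was on X. It lay at chrX:1465000-1521999, was 57000 bases wide and had a score of 14640, the highest in the list. The widest autosomal peak measured 46800 bases, and the highest autosomal score was 7669. On X itself the next widest peak, at chrX:19734400-19759599, had 25200 bases, so the first was 2.26 times as wide. The widest peak alone made up 1.42% of all bases under X peaks. Which genes lie there was not determined, since no annotation of build dm3 was used.

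The other peaks among the 8 widest on X lay between chrX:1535600 and chrX:19759599. The peak of rank 3 in width, at chrX:4355600-4377999, had 22400 bases and a score of 1294. That of rank 4, at chrX:1535600-1554799, had 19200 bases, and its score of 3938 had rank 2 on X and rank 8 in the list. Peaks of 14800 bases lay at chrX:11003800-11018599 and chrX:18758400-18773199, with scores of 1605 and 1361. That of rank 8, at chrX:3737000-3751399, had 14400 bases and a score of 2587, of rank 4 on X. Thus 2 of the 8 widest X peaks lay within 100 kb of each other, and the rest lay apart. Of the 8 highest scores on X, 3 belonged to the same neighbourhood, since the peak at chrX:1529400-1534999, 5600 bases wide, had rank 6 with 2155. The peaks among these 8 not named so far were at chrX:10358400-10368399, 10000 bases wide with a score of 2363, and at chrX:16317000-16330999, 14000 bases wide with 2055.

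The surroundings of the widest peak were uneven. On its telomere side, 3 peaks of 6000, 600 and 800 bases led up to it with scores of 462.5, 69.4 and 61.2. On its centromere side, after a gap of 7400 bases, followed a run of 5 peaks of 5600, 19200, 1000, 5000 and 2000 bases, with scores of 2155, 3938, 50.6, 279.0 and 71.1. Peaks covered 65.6% of the 50 kb next to it on the centromere side, against 19.2% of the 50 kb on the telomere side. Over 100 kb the shares were 39.6% and 25.8%. Farther out on the centromere side, the last close peak ended at 1589999 and was followed by 78000 bases with no peak.

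**Figure D3:**
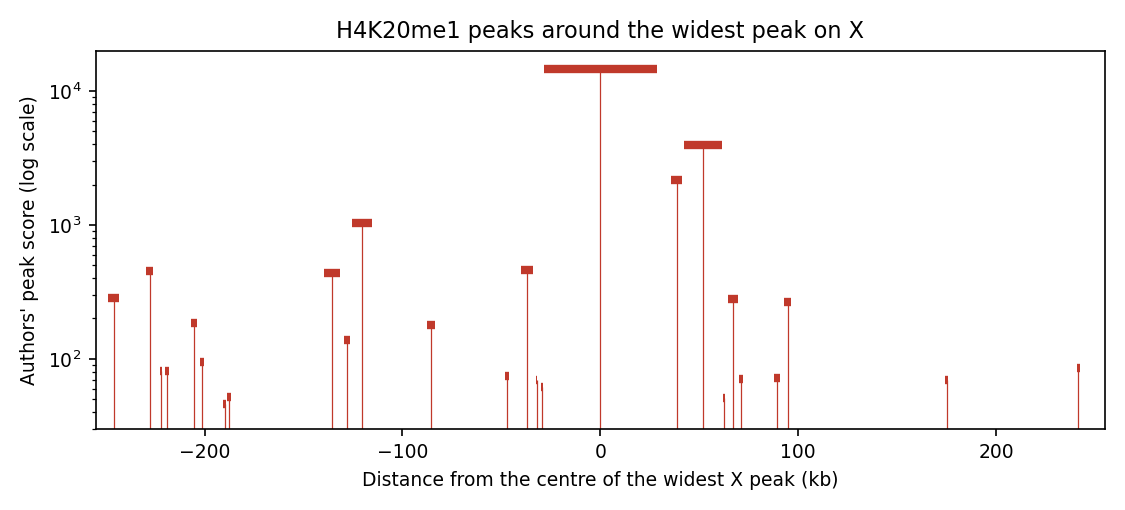
H4K20me1 peaks within 250 kb of the centre of the widest X peak, with distance from its centre in kb on the horizontal axis (telomere side to the left) and the authors' score on a log scale on the vertical axis. Each bar spans its peak to scale, with a thin line marking its centre; the central bar is the peak of 57000 bases with a score of 14640, and the pair to its right has scores of 2155 and 3938.

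X peaks were close to a neighbour about as often as autosomal peaks. The median gap between neighbouring X peaks was 2200 bases (95% interval 2000 to 2600, n = 1366 gaps), against 2400 bases on 2L, 2400 on 3L and 2000 on 3R. The shortest gap on every arm was 600 bases, so the list holds no neighbours nearer than that. Whether nearer stretches were joined when the peaks were called is stated in no header or label. Widths, gaps, runs and coverage would depend on such joining. This shortest gap made up 247 of the X gaps (18.1%), against 19.1% on 2L, 19.4% on 3L and 21.4% on 3R. Gaps of at most 2 kb numbered 664 on X (48.6%), against 46.1% on 2L, 47.6% on 3L and 51.9% on 3R.

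Long stretches without a peak took up much of X. Gaps above 50 kb numbered 101 on X (7.39% of its gaps), against 94 on 2L (7.19%), 86 on 3L (5.33%) and 107 on 3R (5.47%). Together these stretches filled 50.9% of X, against 52.7% of 2L, 40.1% of 3L and 43.4% of 3R. In this respect X and 2L had the higher values and 3L and 3R the lower.

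**Figure D4:**
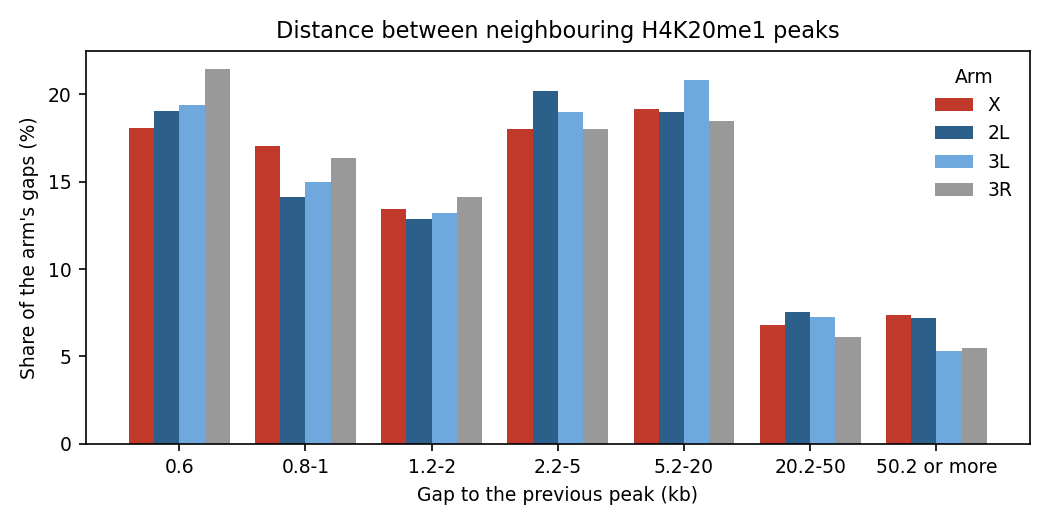
Share of each arm's gaps between neighbouring H4K20me1 peaks (vertical axis, %) by gap length in kb (horizontal axis), for X in red and for 2L, 3L and 3R. The shortest gap of 0.6 kb held 18.1% of X gaps, the lowest of the 4 arms, and gaps above 50 kb held 7.39% on X, the highest of the 4.

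Peaks at most 2 kb apart were grouped into runs. On X, 387 peaks stood alone, 156 runs were pairs, 139 runs held 3 to 5 peaks and 21 held 6 or more. Runs of at least 3 peaks took in 48.9% of X peaks, against 45.4% on 2L, 47.6% on 3L and 52.9% on 3R. Runs of 6 or more took in 11.5% of X peaks, against 13.0% on 2L, 12.2% on 3L and 16.4% on 3R. The longest run had 13 peaks on X, against 15 on 2L, 13 on 3L and 12 on 3R.

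X peaks in runs were wider and ranked higher than X peaks that stood alone. The median width was 2400 bases for the 668 X peaks in runs of at least 3, against 2000 bases for the 387 that stood alone. The median score was 139.5 in runs and 83.3 alone, and the shares of wide peaks were 17.2% in runs and 10.1% alone. Of the wide X peaks, 145 of 184 (78.8%) had a neighbour within 2 kb, against 835 of 1183 X peaks under 5 kb (70.6%). The share did not simply rise with width, since it was 75.7% for X peaks of at most 1 kb (156 of 206). Neighbours were nonetheless only weakly alike in size. The Spearman correlation of the widths of neighbouring peaks was 0.09 on X, against 0.02 on 2L, 0.08 on 3L and 0.04 on 3R, and that of their scores was 0.17 on X, against 0.12 on 2L, 0.16 on 3L and 0.13 on 3R. Values this low describe little.

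By number of peaks, the longest runs on X, with 13, 12 and 12 peaks, all lay between 19 and 20 Mb. By bases under peaks, the order differed. The run with most bases under peaks was the one that ends in the widest peak, at chrX:1453400-1521999, where 4 peaks covered 64400 bases, or 93.9% of its length. A run at chrX:1956600-1999799 held 7 peaks of 3000 to 9400 bases, which covered 83.8% of it, with scores between 179.7 and 1032. The other runs named here all lay between 19 and 20 Mb. A run of 13 peaks at chrX:19259400-19303199 covered 77.6% of its length, with no peak wider than 7200 bases and no score above 413.0. A run of 12 peaks at chrX:19368600-19423599 covered 82.2%, with widths from 600 to 8800 bases and a top score of 621.0. A further run of 12 peaks at chrX:19507800-19562799 covered 77.5% and differed in make-up. It held peaks of 11000 and 14400 bases with scores of 1997 and 1404, beside 1 of only 200 bases with 47.4. The run at chrX:19727600-19766399 held 5 peaks, of which the second widest on X, at 25200 bases, filled most of the length.

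From the first to the last of these runs, chrX:19259400-19766399, 77 peaks lay within 507 kb and covered 51.7% of it. This stretch is 2.26% of the length of X and held 5.63% of its peaks. Its median peak width of 2200 bases equalled that of X as a whole, while its median gap was 1000 bases, against 2200 over X. Of the 77 peaks, 15 were wide and 10 were in the top 10% of scores. The stretch was picked because of its runs, so its density is a description. Directly after its last peak came 284800 bases with no peak, at chrX:19766400-20051199, of rank 3 in length among such stretches on X.

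The 5 longest stretches with no peak lay mainly at the centromere end of X. The longest had 369000 bases, at chrX:20532200-20901199, followed by 354600 bases at chrX:21500800-21855399. After the stretch just named came 284200 bases at chrX:7236400-7520599, the only one of the 5 away from that end, and 249000 bases at chrX:20938600-21187599. The longest between neighbouring peaks on the autosomal arms was 485200 bases, on 2L. Stretches before the first or after the last peak of an arm were not measured.

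Along X, counted from the telomere in steps of 1 Mb, the share of bases under peaks varied widely among the 22 full steps. The lowest step had 5.62% of its bases under peaks, the median 17.0% and the highest 39.9%. The ranges were 2.38% to 37.0% on 2L, 8.24% to 40.8% on 3L and 7.48% to 30.4% on 3R. On every arm, steps ending beyond the last peak were not counted. The step from 1 to 2 Mb was the most covered on X, with 78 peaks, of which 20 (25.6%) were in the top 10% of scores. Next were the steps from 19 to 20 Mb, with 100 peaks and 30.8% covered, and from 18 to 19 Mb, with 71 peaks and 24.5% covered. These steps reached high coverage differently. Peaks in the step from 1 to 2 Mb had a median width of 3200 bases, against 2000 bases in the step from 19 to 20 Mb, which held more of them. The least covered full steps were 21 to 22 Mb with 24 peaks, 14 to 15 Mb with 28 peaks and 5.96% covered, and 20 to 21 Mb with 27 peaks and 6.82% covered. No peak of the top 10% lay in these 3 steps, nor in the step from 13 to 14 Mb, which held 66 peaks.

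In steps of 100 kb, a scale chosen after the values were seen, 31 of 224 steps on X held no peak (13.8%), against 43 of 229 on 2L (18.8%), 25 of 230 on 3L (10.9%) and 34 of 278 on 3R (12.2%). Steps ending beyond the last peak of an arm were left out, so stretches with no peak past it do not enter these shares. At least 50% of the bases were under peaks in 12 steps on X (5.36%), against 4.80% on 2L, 6.96% on 3L and 7.91% on 3R. The most covered such step on X, from 1.8 to 1.9 Mb, had 70.8% under peaks and 16 peaks.

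Each arm was split into 5 equal parts between its first and last peak, counted from telomere to centromere. X had its highest coverage and its largest share of wide peaks at the telomere end. The part nearest the telomere had 24.5% under peaks, followed by 16.9%, 18.2%, 14.4% and 15.5% towards the centromere. Wide peaks made up 23.8% of the peaks in the first part (67 of 282), then 10.1%, 11.1%, 7.35% and 15.2%. X peaks of at least 10 kb numbered 19 in the first part, then 2, 6, 2 and 7. On 2L and 3R the first part also held the most such peaks, with 13 and 17. On 3L the first and last parts held 10 each. Peaks of the top 10% made up 16.0% in the first part and between 5.51% and 8.70% in the other parts. The first part also held the largest share of wide peaks on 2L (19.8%), 3L (17.4%) and 3R (22.5%), so a high share of wide peaks near the telomere was seen on all 4 arms. Coverage in the first part was 23.6% on 2L, 27.2% on 3L and 23.2% on 3R. On 3R the second part was slightly higher, with 23.6%.

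**Figure D5:**
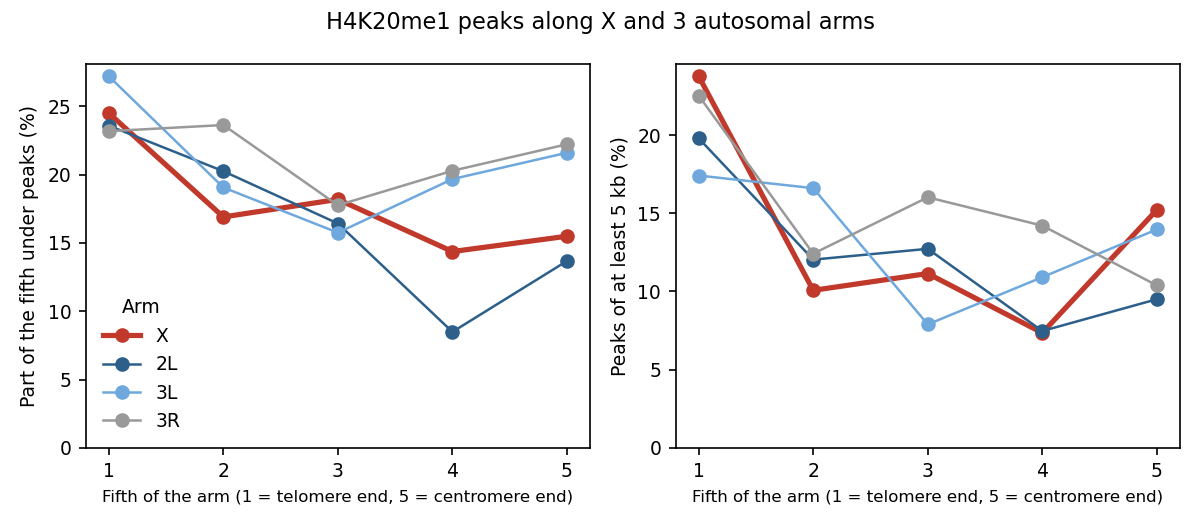
Share of bases under H4K20me1 peaks (left panel, %) and share of peaks at least 5 kb wide (right panel, %) in 5 equal parts of each arm from telomere (1) to centromere (5), for X in red and 2L, 3L and 3R. Each arm was taken from its first to its last peak. On X both values were highest in part 1, at 24.5% and 23.8%.

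Counted inward from the first and last peak of each arm, the ends of X differed more in coverage than those of the autosomal arms did. Stretches beyond the first or last peak were left out, so coverage up to the physical end of an arm was not measured. In the outermost 2 Mb at the telomere, X had 141 peaks and 30.3% under peaks, against 27.1% on 2L, 34.8% on 3L and 24.4% on 3R. In the outermost 2 Mb at the centromere, X had 35 peaks and 3.69% under peaks, against 9.18% on 2L, 24.3% on 3L and 23.8% on 3R. Of these 35 peaks, 2 were wide, none was in the top 10% of scores, and the median width was 1600 bases. By this count X had the lowest coverage of the 4 arms at the centromere end in this single library. Between the ends, X had 18.1% under peaks, against 16.1% on 2L, 18.8% on 3L and 21.0% on 3R.

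Expression of X-linked genes was read from the RNA libraries by gene name, since the gene table used gives chromosomes in a different assembly and genes could not be joined to peaks. Of 2332 X-linked names, 1359 (58.3%) reached 1 FPKM in wild type, against 5059 of 9473 (53.4%) on 2L, 3L and 3R. Among protein-coding genes above that level, the median in wild type was 24.0 FPKM on X and 24.6 FPKM on the 3 autosomal arms. The RNAs of X-linked and autosomal genes thus had like levels per length in this library. Hmt4-20, which is X-linked, had 44.3 FPKM in Polycomb RNAi and 41.8 FPKM in wild type, and pr-set7, on 3R, had 30.8 FPKM in Polycomb RNAi and 33.1 FPKM in wild type. Polycomb itself (Pc) had 13.0 FPKM in the RNAi library and 14.6 FPKM in wild type, so this value does not check the labels.

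Differences between the RNA libraries were measured as log2 of the ratio of FPKM + 1, Polycomb RNAi over wild type, for genes of at least 1 FPKM in either library. Of 1417 X-linked genes, 51 (3.60%) reached a 2-fold higher value in Polycomb RNAi, beside a background of 4.41% over all 8800 genes. At least 2-fold lower values were seen for 27 (1.91%), beside a background of 3.20%. On 2L, 3L and 3R together the shares were 4.61% higher and 3.26% lower. The median log2 difference was 0.0039 on X and -0.0032 over all genes. The counts depend on the pseudocount, on X and over all genes. At 0.1 FPKM, 75 X-linked genes (5.29%) were higher, against 6.48% of all genes, and 48 (3.39%) lower, against 4.72%. At 5 FPKM, 20 (1.41%) were higher, against 1.52% of all genes, and 11 (0.776%) lower, against 1.22%.

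Markers of cell types differed between the same RNA libraries. In Polycomb RNAi, each of the 4 haemocyte markers was higher by 2-fold or more, and they summed to 53.6 FPKM, against 20.5 FPKM in wild type. Of the 3 muscle markers, TpnC73F and the X-linked wupA were at least 2-fold higher, and the 3 summed to 51.6 FPKM in Polycomb RNAi, against 18.9 FPKM in wild type. Both tracheal markers were at least 2-fold lower, with a sum of 29.8 FPKM in Polycomb RNAi, against 240.7 FPKM in wild type, most of it from the X-linked obst-A. Of the 8 wing disc markers, Dll, ci, vg and ap were at least 2-fold lower, and sd and nub were lower by less than 2-fold. The markers hth and wg were higher, with 169.1 and 51.3 FPKM in Polycomb RNAi, against 137.8 and 43.0 FPKM in wild type. The 8 summed to 521.2 FPKM in Polycomb RNAi, against 775.2 FPKM in wild type. None of the 3 fat body markers was 2-fold apart, with sums of 1509 FPKM in Polycomb RNAi and 1854 FPKM in wild type. The part of these markers' cells in the X-linked differences was not tested, and fewer cells of a type cannot be told apart from less RNA per cell. The male-expressed roX1 and roX2 were lower by less than 2-fold. They had 107.7 and 49.9 FPKM in Polycomb RNAi, against 138.1 and 70.2 FPKM in wild type. The share of males in each library is not given, and its part in the X-linked differences was not tested.

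Among X-linked genes reaching 5 FPKM, 3 of the 5 with the largest differences upward were genes of small RNAs. The microRNA genes mir-4962 and mir-3645 had 83.5 and 29.4 FPKM in Polycomb RNAi and were listed at 0 in wild type, as was snoRNA:Psi18S-1854a, with 67.7 FPKM in Polycomb RNAi. FPKM values of such short RNAs rest on very short lengths. CG11697 had 44.9 FPKM in Polycomb RNAi and 0.351 FPKM in wild type, a log2 difference of 5.09. CG12057 had 16.7 FPKM in Polycomb RNAi and 0.296 FPKM in wild type, a log2 difference of 3.77. Downward, obst-A, which encodes a chitin-binding protein of the cuticle and is expressed in trachea, had 20.2 FPKM in Polycomb RNAi and 220.0 FPKM in wild type. The other tracheal marker, trh, had 9.65 FPKM in Polycomb RNAi and 20.7 FPKM in wild type, and the part of tracheal cells in the obst-A difference was not tested. CG32667 had 0.8 FPKM in Polycomb RNAi and 9.80 FPKM in wild type, and CG4096 had 8.99 FPKM in Polycomb RNAi and 29.9 FPKM in wild type. CR41602, a pseudogene of ribosomal RNA, had 2.47 FPKM in Polycomb RNAi and 87.1 FPKM in wild type. The gene snoRNA:CG16892-a, with 14.9 FPKM in wild type, was listed at 0 in Polycomb RNAi. H4K20me1 was mapped here in wild type alone, so whether X peaks differ in Polycomb RNAi discs was not analysed.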

How the data were processed

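The deposited peak list from the H4K20me1 ChIP sample gives chromosome, start, end and a score per peak by the authors, with no header, and was used as deposited. Peak positions are in dm3, per the submitters' processing notes, which also name CASAVA 1.4, Bowtie 1.0.0, SICER, TopHat2 2.0.11 and Cufflinks without saying which tool made which file. Thresholds, the use of the input and read depth are stated in no header or label. Width was end minus start plus 1, and coordinates are printed as the list has them. FPKM values per gene were deposited by the authors, 1 column per RNA library; a row named by a dash was left out. Gene names were matched to RefSeq genes of Release 6 for chromosome and class (15028 of 15627 names, 96.2%).

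Widths, gaps, runs, bins and medians were computed with Python 3.11.15, pandas 2.3.3 and scipy 1.17.1, after the functions were tested on simulated peaks. Median intervals are from binomial order statistics. X members, lists and thresholds were chosen with earlier results of these data known. Named regions were the 8 widest and 8 highest scoring peaks, the runs with most bases or peaks, the 5 longest free stretches, the extreme 1 Mb steps and the 5 narrowest peaks of the top 10% of scores. Named genes were Pc, roX1, roX2, pr-set7, Hmt4-20, the tissue markers and the 5 largest differences on X in each direction. The exceptional wide peaks of low score, the 100 kb steps and the stretch of runs were singled out after their values were seen. No sequence is shown.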

Additional observations from a re-analysis of the deposited data

How the results depend on the processing

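The 7 ratios of X to the pooled arms 2L, 3L and 3R were recomputed with stricter scores, without the ends, with peaks joined, without each autosomal arm and with other widths and gaps. Each recomputed ratio was set against bounds around the ratio as reported. The bounds held the counting error of the X value alone, with peaks treated as independent and the autosomal value held fixed. Error in the autosomal value was thus left out. For coverage they used the error in the number of X peaks, which leaves out the spread of widths. Of the 52 recomputed ratios, 44 stayed within these bounds and 8 left them. For peaks per Mb (0.92 as reported) the bounds were 0.876 to 0.975. The values outside were 0.983 without the first and last 2 Mb of each arm and 0.872 without 2L. For the share of bases covered (0.91 as reported) the bounds were 0.863 to 0.960. The values outside were 0.961 without the ends, 0.849 without 2L and 0.963 without 3R. For the share of peaks in runs (0.99 as reported) the bounds were 0.939 to 1.049. The values outside were 1.10 with scores at or above the list's median and 0.84 with scores at or above its upper quartile. For wide peaks (0.98 as reported) the bounds were 0.850 to 1.118. The value outside was 1.14 with a width of at least 10 kb, where X had 36 peaks. Joined peaks give no share in runs. The cause of these moves was not tested. Without the widest peak on X, an alternative chosen after seeing the data, the coverage ratio was 0.90 and that of median scores 1.01.

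Larger bins average over more peaks. The most covered bin of X had 46.4% under peaks with bins of 500 kb and 29.6% with bins of 2 Mb, and the least covered had 2.12% and 6.22%. With bins of 200 kb, 3.57% of X bins held no peak, against 13.8% with 100 kb.

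The counts of X-linked genes, 51 higher and 27 lower in Polycomb RNAi, were 75 and 48 with a pseudocount of 0.1 and 20 and 11 with a pseudocount of 5. With a minimum of 5 FPKM they were 23 and 19 of 1210 genes (1.90% and 1.57%, against 2.57% and 2.53% of all genes). For protein-coding genes, an alternative that was not planned, they were 39 and 19 of 1352 (2.88% and 1.41%, against 3.82% and 2.65%). No paired analysis was possible because each group is 1 library. Depth is unknown for every library, so no limit on undetected marks can be given.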
